A study of Mus musculus with 74 samples.

Results

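T cell hybridoma cells carrying HDAC7-VP16 were compared directly with T cell hybridoma cells stimulated with PMA and ionomycin. The comparison used 18 of the 74 arrays of the series, chosen by their titles. The first group is the 10 arrays titled HDAC7-VP16, from cells with no stimulus named. The second is the 8 arrays of cells transduced with the empty retrovirus MSCV and treated with PMA and ionomycin for 2.5 h. Both groups were DO11.10 hybridoma cells, a mouse T cell line with a fixed receptor for an ovalbumin peptide, and on each array the second RNA came from untreated DO11.10 cells. Each value is therefore a log2 ratio to the same kind of untreated cell, and the question is which genes the HDAC7 fusion raised more, or less, than the stimulus did.

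HDAC7 belongs to the class IIa histone deacetylases and is carried by MEF2 transcription factors to their target genes, where it keeps transcription down. Signals from the T cell receptor send it out of the nucleus, and one gene released in this way is Nr4a1, which encodes the orphan receptor Nur77 and is linked to the death of self-reactive thymocytes. VP16 is a viral activation domain, so that HDAC7-VP16 turns the repressor into an activator at the same sites. PMA switches on protein kinase C and ionomycin lets calcium into the cell, which together replace the receptor signal and reach MEF2, NFAT, NF-kB, AP-1 and the MAP kinases at once.

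Several features of the design limit the groups as models. The labels give no time between transduction and harvest and no clone. Nothing in them ties an array to a culture of its own, so each p-value reflects array-to-array spread that may be purely technical. The stimulated cells carried the empty virus and the HDAC7-VP16 cells a construct. Subtracting an empty-virus value from each group would leave the difference between them as it is, and on the 12 arrays of unstimulated empty-virus cells from the same slide series Cd28, Cd6 and Nr4a1 averaged 0.17, -0.36 and -0.69. In a bulk sample fewer cells with a transcript and less transcript per cell cannot be told apart, and the share of cells carrying the construct is not given. Because the values are ratios to the same line, T cell identity could be read only as a shift. Of 9 T cell marker genes Cd247 and Cd2 were higher in HDAC7-VP16 cells (log2 difference 0.70, adjusted p = 0.00191, and 0.65, adjusted p = 0.00613), and 7 were not called, Cd3e, Cd3d, Cd3g, Cd4, Thy1, Lat and Ptprc. Of 18 marker genes of other lineages 0 were called. Their mean log2 ratios lay between -0.28 and 0.12 in HDAC7-VP16 cells and between -0.89 and 0.46 in stimulated cells. With 9.58% of all 13409 genes called in either direction, 0 of 18 is near that share and says little about identity.

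Dye and slide left a mark on the arrays. The 10 HDAC7-VP16 arrays held 5 in each dye orientation and the 8 stimulated arrays 4 in each. Over all probes, HDAC7-VP16 arrays of opposite orientation correlated negatively (median r = -0.475), while stimulated arrays of opposite orientation correlated positively (median r = 0.362). Arrays of the same orientation correlated positively within HDAC7-VP16 (median r = 0.525), within stimulated cells (median r = 0.433) and between the groups (median r = 0.226). A column for dye orientation, common to both groups, was part of the fit. Such a column does not take up a dye effect that differs between the groups. Among 129 named genes, the Cy5 and Cy3 arrays of HDAC7-VP16 cells did not overlap for 26 and lay on opposite sides of untreated cells for 9, which were Trgv2, Tnfsf11, Rrad, Socs1, Cd24a, Bcl10, Trp53inp1, Coro1a and Tap2. For stimulated cells these numbers were 9 and 0. HDAC7-VP16 came from slides 7 to 12 and the stimulus from slides 13 to 16, each in slide series 14 and 15, so slide number and group cannot be told apart, while slide series can be. HDAC7-VP16 replicates 9 and 10, both of series 14, held the lowest Cd5, Gpr65 and Nr4a1 ratios of their group, and calls without them are given where they matter. The source name of HDAC7-VP16 replicate 1 names the empty virus, and without that array 1374 probes were called in place of 1452.

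HDAC7-VP16 cells and stimulated cells differed in 1452 of 16463 probes (8.82%), 778 of them higher (4.73%) and 674 lower (4.09%) in HDAC7-VP16 cells, by limma with a Benjamini-Hochberg adjusted p under 0.05. The difference was called and at least 2-fold for 285 probes (1.73%), with 102 higher (0.62%) and 183 lower (1.11%) in HDAC7-VP16 cells. Most of these differences lay on the side of the stimulus. Against untreated cells, 463 probes were called in HDAC7-VP16 cells (2.81%), 241 above (1.46%) and 222 below (1.35%). In stimulated cells 2937 were called (17.8%), 1276 above (7.75%) and 1661 below (10.1%). Of the 102 probes higher by 2-fold or more, the HDAC7-VP16 ratio was further from 0 than the stimulated ratio for 19 and the reverse held for 83, with median log2 ratios of 0.21 in HDAC7-VP16 cells and -1.04 in stimulated cells. Of the 183 lower probes it was further from 0 for 12 against 171, with medians of -0.04 in HDAC7-VP16 cells and 1.46 in stimulated cells. Over all 16463 probes these numbers were 6070 against 10393. The calls depended on what counts as a replicate: with the arrays of neighbouring slide numbers averaged, which leaves 3 values against 2, 22 probes were called. Every HDAC7-VP16 array lay above every stimulated array for 102 probes (0.62%) and below for 146 (0.887%).

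**Figure D1:**
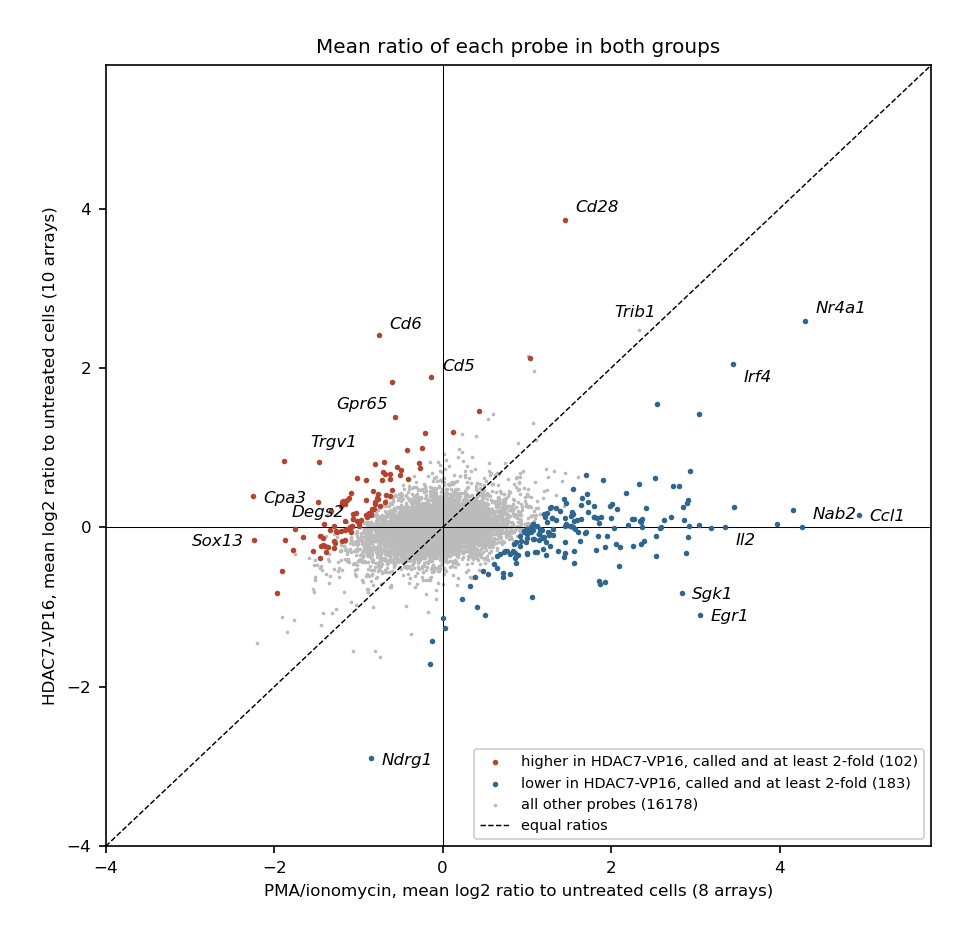
Mean log2 ratio to untreated cells of each probe in HDAC7-VP16 cells (vertical axis, 10 arrays) and in PMA/ionomycin cells (horizontal axis, 8 arrays), with the dashed line marking equal ratios. Red points (102) are called and at least 2-fold higher in HDAC7-VP16 cells and blue points (183) at least 2-fold lower. Cd28, Cd6 and Cd5 stand high on the vertical axis, most blue points lie along a vertical value near 0, and Nr4a1 and Irf4 lie far out on both axes.

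The targeted gene and its partners came first. Hdac7 had log2 ratios of -0.15 to 1.19 (median 0.60) in HDAC7-VP16 cells and -0.87 to 0.23 (median -0.16) in stimulated cells. The groups overlapped, and the means were 0.55 ± 0.41 (SD, n = 10) and -0.22 ± 0.34 (SD, n = 8), a difference of 0.77 (SE 0.17, adjusted p = 0.00534). On the 12 empty-virus arrays Hdac7 averaged 0.13. Against these arrays neither HDAC7-VP16 (0.42, adjusted p = 0.0758) nor the stimulus (-0.35, adjusted p = 0.0932) was called. Whether the Hdac7 probe lies within the sequence of the construct is not given in the sources used here. The Hdac7 difference between HDAC7-VP16 and stimulated cells was 0.21 in slide series 14 and 1.22 in series 15. It was no longer called without slides 7 and 8 (adjusted p = 0.0535) or 15 and 16 (adjusted p = 0.0878). Mef2d, the gene of a MEF2 factor that binds HDAC7 in T cells, was lower in HDAC7-VP16 cells, at 0.10 ± 0.24 against 0.57 ± 0.20 in stimulated cells (difference -0.47, SE 0.11, adjusted p = 0.00941). That call was lost when slides 7 and 8, 11 and 12, or 15 and 16 were left out. Mef2b was also lower (difference -0.74, adjusted p = 0.0227), but leaving out any of stimulated replicates 5, 6, 7 or 8 ended the call, at differences of -0.65 to -0.67. Without slides 15 and 16 the Mef2b difference was -0.24 (adjusted p = 0.599), and the call was also lost without slides 7 and 8 or 9 and 10. Hdac5, which encodes another class IIa deacetylase, had ratios of 0.15 to 2.27 (median 1.55) in HDAC7-VP16 cells and -0.23 to 1.38 (median 0.42) in stimulated cells. The Hdac5 difference of 0.83 was not called with all arrays (SE 0.32, adjusted p = 0.133). It was called without HDAC7-VP16 replicates 9 and 10 (1.11, adjusted p = 0.0178), without slides 11 and 12 (1.25, adjusted p = 0.0206), without slides 15 and 16 (1.43, adjusted p = 0.033) and with the empty-virus arrays in the fit (adjusted p = 0.0392). Mef2c and Hdac9 were not called. The list of 16 class IIa deacetylases, MEF2 factors and corepressors held 2 higher genes, Hdac7 and Hdac1, and 2 lower ones, Mef2b and Mef2d. Its other 12 genes were not called, and its median difference was -0.01. Over all 13409 genes 5.19% were higher and 4.39% lower. With neighbouring slides averaged 0 of the 16 were called. Without any of stimulated replicates 5 to 8 the Hdac1 call was lost too (0.69 with all arrays, 0.62 to 0.70 without), as it was without slides 7 and 8 or 15 and 16.

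Several receptor genes of the T cell surface were higher in HDAC7-VP16 cells, without overlap between the groups. Cd6, which encodes a scavenger receptor that tunes receptor signals, had log2 ratios of 0.68 to 4.48 (median 2.47) in HDAC7-VP16 cells and -1.12 to -0.33 (median -0.70) in stimulated cells. All 10 HDAC7-VP16 arrays lay above untreated cells and all 8 stimulated arrays below, so the groups did not overlap. The means of 2.41 ± 1.17 and -0.76 ± 0.25 differed by 3.17 (SE 0.37, 9.00-fold, adjusted p = 1.7e-05). Cd28, the gene of the main costimulatory receptor, had ratios of 2.86 to 5.02 (median 3.81) in HDAC7-VP16 cells and 0.99 to 1.95 (median 1.47) in stimulated cells. Cd28 was thus above untreated cells on every array of both groups, yet the lowest HDAC7-VP16 array exceeded the highest stimulated one (means 3.85 ± 0.71 and 1.45 ± 0.36; difference 2.40, SE 0.26, 5.29-fold, adjusted p = 8.57e-06). Cd5, which encodes an inhibitory receptor whose level follows receptor signal strength in thymocytes, had ratios of 0.77 to 2.39 (median 2.11) in HDAC7-VP16 cells and -0.33 to 0.10 (median -0.16) in stimulated cells. The stimulated arrays sat around 0 and the groups did not overlap (1.89 ± 0.59 against -0.13 ± 0.15; 4.05-fold, adjusted p = 4.75e-06). The 2 lowest HDAC7-VP16 values of Cd5, 0.77 and 0.82, were replicates 9 and 10, and without both arrays the Cd5 difference was 2.29.

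Gpr65, which encodes a proton-sensing receptor named for its induction in dying T cells, moved to opposite sides of untreated cells. Its ratios were 0.40 to 1.90 (median 1.55) in HDAC7-VP16 cells and -1.34 to 0.01 (median -0.44) in stimulated cells, with no overlap. The difference was 1.95 (3.86-fold, adjusted p = 1.71e-05). In slide series 14 alone none of these differences was called (Cd6 2.97, Cd28 2.52, Cd5 1.51 and Gpr65 1.60, adjusted p = 0.0729 to 0.166), while in series 15 alone all were (3.29, 2.34, 2.40 and 2.16, adjusted p = 9.61e-06 to 0.00252). With neighbouring slides averaged, their adjusted p lay between 0.0599 and 0.0992. Each of the 4 genes kept its call when any single array or any slide pair was left out.

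**Figure D2:**
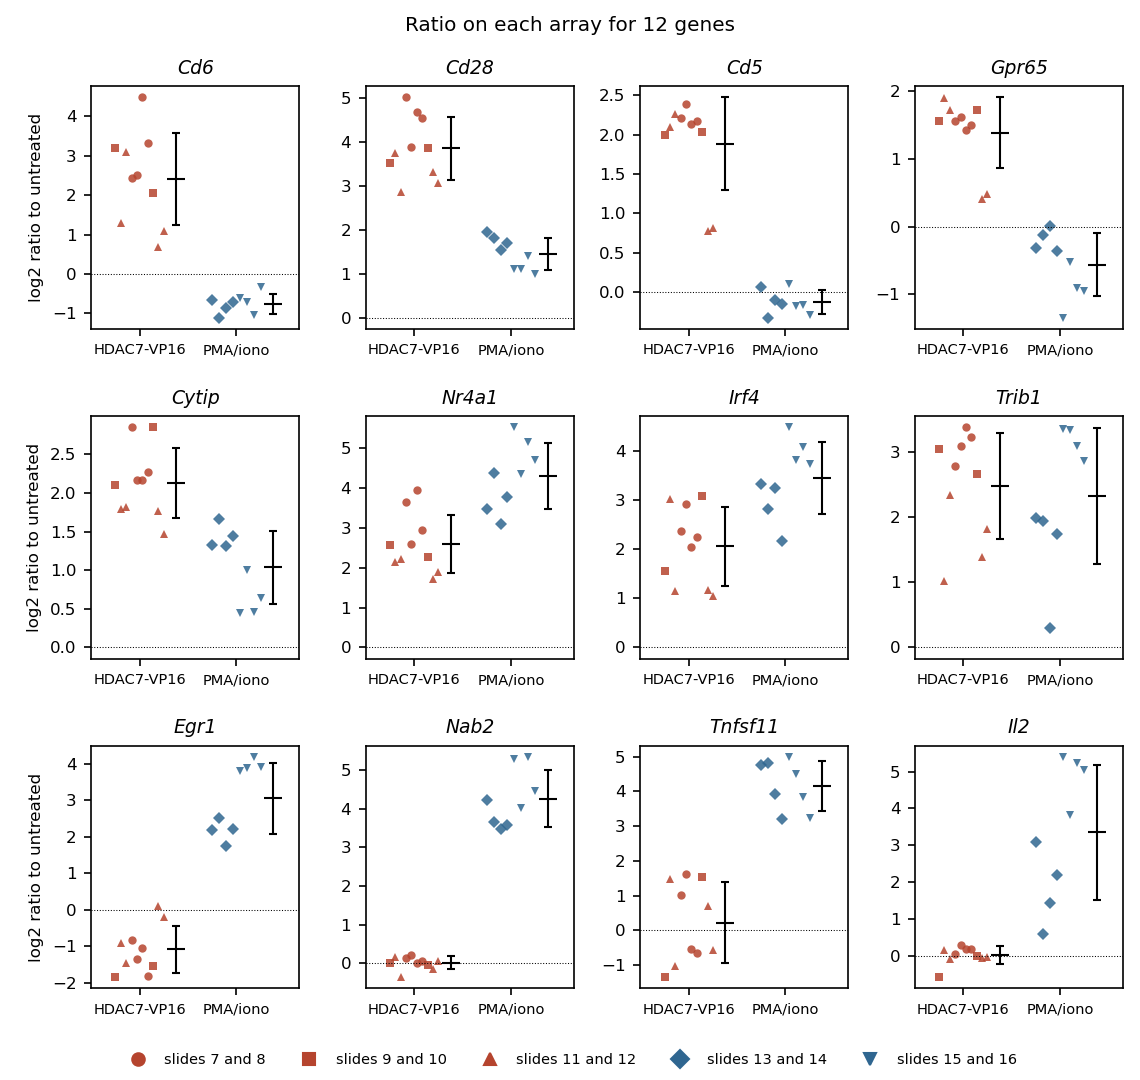
Log2 ratio to untreated cells on each array for 12 genes, with HDAC7-VP16 arrays (red) left and PMA/ionomycin arrays (blue) right, marker shape for the neighbouring slide numbers and black bars for the mean and SD. Cd6, Cd28, Cd5 and Gpr65 do not overlap with HDAC7-VP16 above, Egr1, Nab2, Tnfsf11 and Il2 do not overlap with HDAC7-VP16 below, and Cytip, Nr4a1, Irf4 and Trib1 overlap.

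The other genes among the 12 highest differences had stimulated ratios far below 0. Cpa3, which encodes a mast cell carboxypeptidase, averaged 0.39 ± 0.52 in HDAC7-VP16 cells and -2.25 ± 0.38 in stimulated cells (difference 2.63, adjusted p = 6.4e-08). Sox13, the gene of a transcription factor of the gamma-delta lineage, averaged -0.16 ± 0.52 and -2.24 ± 0.28 (difference 2.08, adjusted p = 6.22e-07). Degs2, which encodes an enzyme of ceramide synthesis, averaged -0.02 ± 0.18 and -1.75 ± 0.23 (difference 1.73, adjusted p = 2.82e-09). HDAC7-VP16 cells were not called against untreated cells for these 3 genes, and the groups did not overlap for any of them. Cbr1, a carbonyl reductase gene, followed the same order (0.33 ± 0.53 and -1.48 ± 0.73, difference 1.80). Rapgef3, which encodes the cyclic AMP sensor Epac1, and Trgv1, a variable segment of the gamma receptor chain, were above untreated cells in HDAC7-VP16 and below in stimulated cells (Rapgef3 0.61 ± 0.39 and -1.01 ± 0.24; Trgv1 0.83 ± 0.51 and -1.47 ± 0.11). Its neighbour segment Trgv2 differed by 2.71 (adjusted p = 0.000725), but split by dye: the 5 HDAC7-VP16 arrays with that RNA in Cy5 lay between 1.37 and 3.86 and the 5 in Cy3 between -1.59 and -0.53. Such segments are near-identical in sequence, so the probes of Trgv1 and Trgv2 may read each other's transcripts. The cyclin gene Ccne2 (difference 1.71, adjusted p = 0.0317) lost its call when any of HDAC7-VP16 replicates 5, 7, 9 or 10 or stimulated replicates 5 to 8 was left out, at 1.46 to 1.66. Without slides 15 and 16 the Ccne2 difference was 0.31 (adjusted p = 0.695), and the stimulated means were -0.46 on slides 13 and 14 and -3.27 on slides 15 and 16.

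The stimulus raised a large inducible program that HDAC7-VP16 left near untreated levels. Of 36 transcription factor and immediate early genes of the T cell receptor response, 25 were lower in HDAC7-VP16 cells, 1 was higher and 10 were not called, with a median difference of -0.97 against 0.01 over all 13409 genes. Of all these genes 5.19% were called higher and 4.39% lower. Against untreated cells, 3 of the 36 were above in HDAC7-VP16 cells and 28 in stimulated cells. Nab2, which encodes a corepressor of the EGR factors, had ratios of -0.37 to 0.22 (median 0.03) in HDAC7-VP16 cells and 3.48 to 5.36 (median 4.13) in stimulated cells. The HDAC7-VP16 arrays straddled 0 and the groups lay far apart (difference -4.26, SE 0.23, 19.2-fold, adjusted p = 1.56e-09). Egr1, an early zinc finger factor gene, had ratios of -1.85 to 0.10 (median -1.19) in HDAC7-VP16 cells and 1.74 to 4.20 (median 3.16) in stimulated cells. It was called below untreated cells in HDAC7-VP16 cells and above in stimulated cells, 17.7-fold apart (adjusted p = 7.53e-07). Egr2, which acts in negative selection, averaged 0.04 ± 0.24 in HDAC7-VP16 cells and 3.97 ± 1.28 in stimulated cells (15.3-fold, adjusted p = 3.08e-06). Egr3, Fos, Jun and Nr4a2 were among the 10 not called. The gene that went the other way was Batf, an AP-1 partner factor, at 0.69 ± 0.33 in HDAC7-VP16 cells and -0.13 ± 0.16 in stimulated cells (difference 0.81, adjusted p = 2.42e-05). With HDAC7-VP16 replicates 9 and 10 left out, 22 of the 36 were lower. In the slide series alone 5 (series 14) and 18 (series 15) were lower, and with neighbouring slides averaged 2.

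Cytokine genes differed in the same direction. Of 31 cytokine, chemokine and TNF-family ligand genes, 15 were lower in HDAC7-VP16 cells, 0 higher and 16 not called. Their median difference was -0.36. Among all 13409 genes 5.19% were higher and 4.39% lower. Il2, the T cell growth factor gene, had ratios of -0.58 to 0.30 (median 0.03) in HDAC7-VP16 cells and 0.60 to 5.40 (median 3.46) in stimulated cells. The stimulated arrays spread widely, with a mean of 1.83 for slides 13 and 14 against 4.87 for the other pair, but all lay above the HDAC7-VP16 arrays (difference -3.34, SE 0.55, 10.2-fold, adjusted p = 0.00058). Ccl1, a chemokine gene, had the lowest difference of all named genes, with means of 0.16 ± 0.21 in HDAC7-VP16 cells and 4.94 ± 2.08 in stimulated cells (-4.78, SE 0.62, 27.5-fold, adjusted p = 5.46e-05). Tnfsf11, which encodes RANK ligand, was 15.4-fold lower (0.22 ± 1.16 and 4.16 ± 0.71; adjusted p = 3.12e-10). Its HDAC7-VP16 values split by dye, with the 5 Cy5 arrays at 0.69 to 1.63 and the 5 Cy3 arrays at -1.35 to -0.55, all below the lowest stimulated array of 3.21. Fasl, the gene of the ligand of the death receptor Fas, averaged 0.03 ± 0.25 in HDAC7-VP16 cells and 3.04 ± 0.68 in stimulated cells (8.07-fold, adjusted p = 3.84e-08). The remaining called genes were Tnf, Il3, Tnfsf4, Il13, Lta, Ltb, Il4, Ccl3, Csf1, Cd70 and Cxcl10. Depending on the slide series used alone, 3 or 8 of the 31 were called lower, and with neighbouring slides averaged 1.

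NF-kB and feedback genes showed the same gap. Of 14 NF-kB subunit and feedback genes, 10 were lower in HDAC7-VP16 cells and 4 were not called, with a median difference of -1.04, and 0 were above untreated cells in HDAC7-VP16 cells against 10 in stimulated cells. Nfkbia, which encodes the inhibitor of NF-kB, averaged -0.23 ± 0.36 in HDAC7-VP16 cells and 2.25 ± 0.37 in stimulated cells (difference -2.48, adjusted p = 3.84e-08). Traf1, an adaptor gene of TNF receptors, averaged -0.32 ± 0.39 and 2.89 ± 0.93 (difference -3.21, adjusted p = 1.63e-06). The groups did not overlap for either gene. Among 22 calcineurin-NFAT and MAP kinase feedback genes 7 were lower, 1 higher and 14 not called. Beside both lists, the shares of all 13409 genes were 5.19% higher and 4.39% lower. Cish and Socs1 encode inhibitors of cytokine signalling and were 8.25-fold and 7.49-fold lower. Rcan1, a calcineurin regulator gene, was the higher one (0.42 ± 0.58 in HDAC7-VP16 cells and -0.30 ± 0.20 in stimulated cells, adjusted p = 0.0229), a call that was lost without slides 7 and 8, 13 and 14, or 15 and 16. Further genes among the 12 lowest were Sgk1, a kinase gene (-0.82 ± 0.48 and 2.84 ± 0.84), Phlda1, linked to receptor-induced death (0.25 ± 0.32 and 3.46 ± 0.37), and Rrad, a small GTPase gene (-0.01 ± 0.67 and 3.18 ± 1.19). With the slide pairs left out in turn, 7 to 10 of the 14 NF-kB genes were called lower, and with neighbouring slides averaged 0.

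Nr4a1, the known HDAC7 target, was raised strongly by both, and more by the stimulus. Its ratios were 1.71 to 3.93 (median 2.42) in HDAC7-VP16 cells and 3.09 to 5.52 (median 4.36) in stimulated cells. All 18 arrays lay above untreated cells, and the groups overlapped. The means of 2.59 ± 0.73 and 4.30 ± 0.83 differed by -1.71 (SE 0.35, 95% interval -2.44 to -0.97), which made Nr4a1 3.27-fold lower in HDAC7-VP16 cells (adjusted p = 0.00372). By slides, the HDAC7-VP16 means were 3.28 (7 and 8), 2.42 (9 and 10) and 1.99 (11 and 12), and the stimulated means 3.67 (13 and 14) and 4.92 (15 and 16). The difference kept its sign but was not called without slides 11 and 12 (-1.31, adjusted p = 0.0658) or without 15 and 16 (-1.08, adjusted p = 0.166). Irf4, which encodes a factor that grades receptor signals, behaved alike: 2.06 ± 0.80 in HDAC7-VP16 cells and 3.45 ± 0.73 in stimulated cells (difference -1.40, 2.63-fold, adjusted p = 0.00759). The Irf4 call was lost without the same slides, 11 and 12 (-1.09) or 15 and 16 (-0.83).

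Other genes above untreated cells in both groups fell into 3 kinds. Each was called above untreated cells in both groups. Untreated cells are the second RNA of both sets of ratios, so these calls are not independent. Their overlap was not tested, and the difference is what compares the groups. Besides Cd28, Cytip, which encodes a partner of cytohesins at the cell edge, was higher in HDAC7-VP16 cells (2.12 ± 0.45 and 1.04 ± 0.47, difference 1.09, adjusted p = 0.00182), and so was the ganglioside synthase gene St3gal5 (1.43 ± 0.62 and 0.60 ± 0.35, adjusted p = 0.0049). Both calls were lost without slides 15 and 16 (Cytip 0.69, adjusted p = 0.107). Ahsg (difference 0.88) and Nrp1 (0.54) lost theirs when any of 13 and 10 single arrays was left out. The Ahsg difference was 0.34 without slides 7 and 8, and that of Nrp1 0.25 without slides 13 and 14. Lower in HDAC7-VP16 cells were Ddc, the gene of an aromatic amino acid decarboxylase (0.62 ± 0.21 and 2.52 ± 0.22, adjusted p = 6.66e-10, with a further Ddc probe not called), Ccn4, a secreted matrix protein gene (1.42 ± 0.48 and 3.05 ± 0.34, adjusted p = 2.74e-05), and the polyamine enzyme gene Sat1 (0.48 ± 0.72 and 1.55 ± 0.29, adjusted p = 0.000823). The Sat1 values of HDAC7-VP16 cells split by dye, at 0.77 to 1.66 on the 5 Cy5 arrays and -0.84 to 0.26 on the 5 Cy3 arrays.

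For 8 more genes raised in both groups the difference was not called, and its 95% interval is given. These intervals treat the arrays as independent and are not adjusted for the number of probes. They may therefore be too narrow to bound the difference between cultures. Trib1, the gene of a pseudokinase that guides protein degradation, averaged 2.48 ± 0.82 in HDAC7-VP16 cells and 2.33 ± 1.05 in stimulated cells, a difference of 0.15 (95% interval -0.73 to 1.02). Bmp4, a growth factor gene, averaged 1.10 ± 0.40 and 1.11 ± 0.39 (-0.38 to 0.36). Arsb, a lysosomal sulfatase gene, averaged 0.81 ± 0.32 and 0.75 ± 0.25 (-0.23 to 0.35). Taken as such, the intervals of Bmp4, Arsb, Nrgn (-0.41 to 0.87) and Mfge8 (-0.45 to 0.77) held no difference as large as 2-fold. Those of Trib1, P4ha2 (-1.10 to 0.12), Mmd (-1.08 to -0.14) and Eno3 (0.23 to 2.04) did. The Mmd and Eno3 intervals excluded 0, though neither difference was called after adjustment. Of 37 alternative settings, Mmd was called in 1 and Eno3 in 2. In HDAC7-VP16 cells P4ha2 and Mmd split by dye: the 5 Cy5 arrays lay at 1.38 to 2.38 and 1.09 to 2.02, and the 5 Cy3 arrays at -1.36 to 0.55 and -0.62 to 0.30. Eno3, a muscle enolase gene, averaged 2.15 ± 1.32 and 1.02 ± 0.37, and its difference was 2.46 in slide series 14 and 0.15 in series 15.

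**Figure D3:**
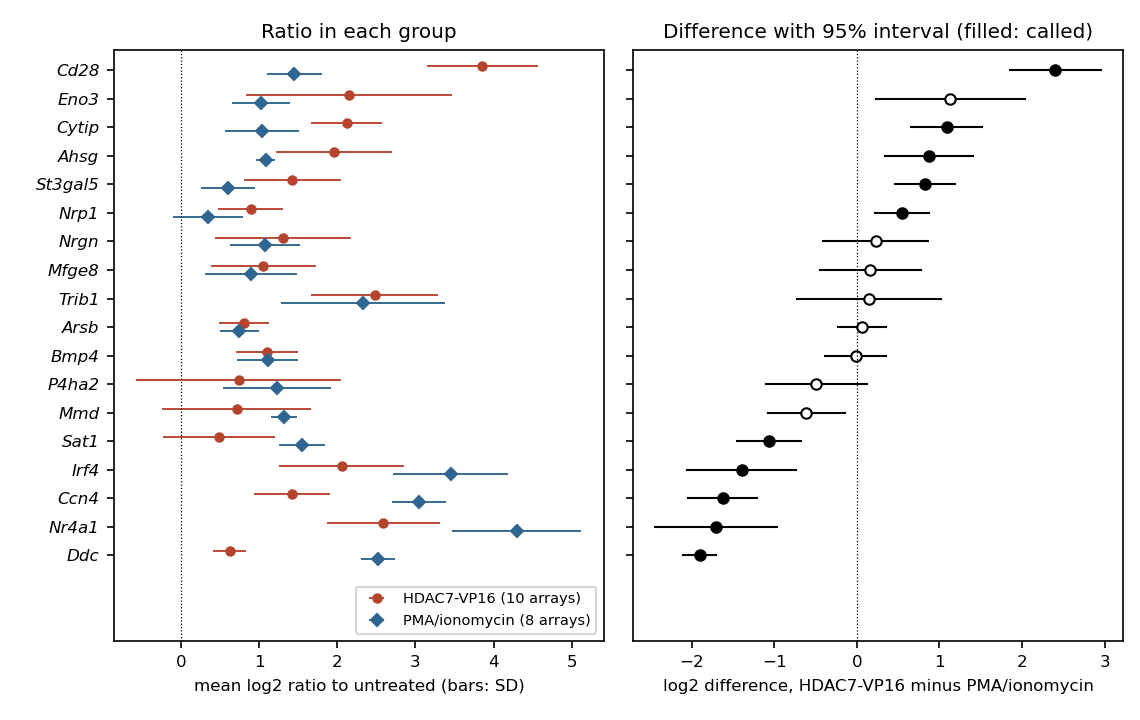
Genes above untreated cells in both groups. Left, mean log2 ratio with SD in HDAC7-VP16 cells (red, 10 arrays) above PMA/ionomycin cells (blue, 8 arrays); right, log2 difference of HDAC7-VP16 minus PMA/ionomycin with its 95% interval, filled where called. Cd28 lies at 2.40 and Ddc at -1.90, with the interval of Bmp4 centred near 0.

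A small set of genes lay on opposite sides of untreated cells. Above in HDAC7-VP16 cells and below in stimulated cells were, besides Gpr65, Trgv1 and Rapgef3, the genes Cdc42ep3, a Cdc42 effector (0.82 ± 0.44 and -0.69 ± 0.46), Edaradd, a death-domain adaptor (0.97 ± 0.57 and -0.42 ± 0.37), and the stress kinase gene Stk39 (0.69 ± 1.10 and -0.71 ± 0.77). Stk39 was above untreated cells on 6 of 10 HDAC7-VP16 arrays, with 0.89 to 2.22 on the 5 Cy3 arrays and -0.78 to 0.06 on the 5 Cy5 arrays. Its difference was not called with no dye column in the fit (1.40, adjusted p = 0.0621), nor was HDAC7-VP16 minus empty virus (0.83, adjusted p = 0.0985). Below in HDAC7-VP16 cells and above in stimulated cells were, besides Egr1 and Sgk1, Ahnak, a large scaffold of calcium signalling (-0.87 ± 0.42 and 1.06 ± 0.54), Samsn1, a lymphocyte adaptor (-0.58 ± 0.18 and 0.80 ± 0.62), Rbpj, the DNA-binding factor of Notch signalling (-0.63 ± 0.48 and 0.72 ± 0.51), and Rilpl2 (-0.34 ± 0.33 and 1.23 ± 0.19). Each difference of these 7 genes was called (adjusted p = 5.67e-07 to 0.000796). The groups did not overlap for Cdc42ep3 or for the 4 last named, and overlapped for Edaradd and Stk39. A further Ahnak probe averaged -0.11 in HDAC7-VP16 cells and 0.34 in stimulated cells (difference -0.44, adjusted p = 0.0138). On the 12 empty-virus arrays Samsn1 averaged -0.62, close to its value with HDAC7-VP16, and Ahnak -0.05.

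Genes below untreated cells in both groups were led by Ms4a6b, a membrane protein gene of resting T cells, at -1.45 ± 0.32 in HDAC7-VP16 cells and -2.20 ± 0.46 in stimulated cells. That difference of 0.75 was called (adjusted p = 0.00326). Gzma, the granzyme A gene (-1.22 ± 0.58 and -1.44 ± 0.24), Trib3 (-1.31 ± 0.72 and -1.84 ± 0.26), Itgb7, an integrin gene (-1.07 ± 0.23 and -1.42 ± 0.60), Ccng2 and Lztfl1 did not differ by a called amount.

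Surface receptors of the costimulatory and inhibitory kind split in both directions. Of 25 such genes 5 were higher in HDAC7-VP16 cells (Cd6, Cd28, Cd5, Cd96 and Cd2), 7 were lower (Cd24a, Nt5e, Cd44, Cd53, Pdcd1, Cd160 and Cd69) and 13 were not called, with a median difference of -0.05. The shares over all 13409 genes were 5.19% higher and 4.39% lower. Cd96, a receptor of T and natural killer cells, averaged 1.18 ± 0.40 in HDAC7-VP16 cells and -0.20 ± 0.14 in stimulated cells. Cd44, a hyaluronan receptor of activated T cells, averaged -0.10 ± 0.46 and 1.31 ± 0.54 (difference -1.41, adjusted p = 8.19e-05), and Nt5e, which encodes the nucleotidase CD73, 0.13 ± 0.53 and 1.88 ± 0.34. Pdcd1, the gene of the inhibitory receptor PD-1, averaged 1.54 ± 0.74 and 2.55 ± 0.49 (adjusted p = 0.0262). The Cd24a values of HDAC7-VP16 cells split by dye, at 1.13 to 3.53 on the 5 Cy5 arrays and -2.97 to -1.02 on the 5 Cy3 arrays. The Cd24a call was lost with no dye column (adjusted p = 0.154) and without slides 15 and 16 (adjusted p = 0.0524). Cd96 and Pdcd1, and Vegfa below, were chosen for description after their values were seen.

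Genes of proximal T cell receptor signalling included both higher and lower ones in HDAC7-VP16 cells. Of 31 genes, 9 were higher (Grb2, Cytip, Sit1, Vav1, Sla2, Cd247, Tec, Sla and Grap2), 2 lower (Ptpn22 and Bcl10) and 20 not called, with a median difference of 0.13. Over all 13409 genes 696 were higher (5.19%) and 588 lower (4.39%), and the median was 0.01. Grb2, an adaptor that links receptors to Ras, averaged 0.42 ± 0.59 in HDAC7-VP16 cells and -0.76 ± 0.17 in stimulated cells, with no overlap (adjusted p = 0.000188). Ptpn22, a phosphatase gene that dampens receptor signals, averaged -0.07 ± 0.23 and 1.26 ± 0.59 (adjusted p = 0.000204). Of the 31, 5 were above untreated cells in HDAC7-VP16 cells, while in stimulated cells 6 were above and 9 below. In slide series 14 alone 1 gene was called higher, in series 15 alone 5, and with neighbouring slides averaged 0.

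Cell cycle genes were called below untreated cells mostly with the stimulus, and hypoxia genes in both groups, more often with HDAC7-VP16. Most genes of each list did not differ by a called amount, 40 of 50 and 21 of 30. The shares over all 13409 genes were 5.19% higher and 4.39% lower. Of 50 cell cycle genes, 9 were higher in HDAC7-VP16 cells and 1 lower, with a median difference of 0.22; 1 was below untreated cells in HDAC7-VP16 cells and 22 in stimulated cells. Cdc6, a replication licensing gene, averaged -0.03 ± 0.36 in HDAC7-VP16 cells and -1.16 ± 0.51 in stimulated cells (adjusted p = 0.000589). The retinoblastoma-family gene Rbl2 showed the same order (0.26 ± 0.22 and -1.20 ± 0.47, adjusted p = 8.57e-06). The count of higher cell cycle genes was 21 without slides 13 and 14 and 1 without slides 15 and 16, a spread of counts that followed the pair of stimulated slides used. Single arrays moved it to 6 to 11, and with neighbouring slides averaged it was 0. Of 30 hypoxia and glycolysis genes 8 were lower in HDAC7-VP16 cells and 1 was higher, with 12 below untreated cells in HDAC7-VP16 cells and 7 in stimulated cells. The count of lower hypoxia genes was 1 to 7 with a slide pair left out, 0 in slide series 14 alone, 6 in series 15 alone and 0 with neighbouring slides averaged. Vegfa, the vascular growth factor gene, was among the 8. Bnip3, a mitophagy gene, averaged -1.71 ± 1.18 in HDAC7-VP16 cells and -0.16 ± 0.22 in stimulated cells (adjusted p = 0.0189). Ndrg1 averaged -2.90 ± 1.75 and -0.85 ± 0.60 (adjusted p = 0.039), but its difference was -0.12 in slide series 14 and -3.38 in series 15, a second probe of the gene averaged -0.06 and 0.00, and 11 single arrays ended the call when left out. Without slides 7 and 8 (Bnip3 adjusted p = 0.0738, Ndrg1 0.117) or 15 and 16 (Bnip3 0.207, Ndrg1 0.441) neither gene was called. Bnip3 also lost its call without slides 13 and 14, and Ndrg1 without 9 and 10. Culture density or oxygen was not measured, and its part was not tested.

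Over all 13409 genes 5.19% were called higher, 4.39% lower and 9.58% in either direction, and the remaining lists are given beside these shares. Of 25 muscle and metabolic genes known as MEF2 targets in other tissues 0 were called, with a median difference of -0.03. Among 34 lineage and thymocyte stage factors 7 were higher and 3 lower. The lowest was Bcl6, the gene of a transcriptional repressor (0.35 ± 0.39 in HDAC7-VP16 cells and 2.91 ± 0.64 in stimulated cells, adjusted p = 8.86e-07). Of 30 apoptosis genes 3 were lower, Phlda1, Gadd45b and Gadd45g, and 1 higher, the death-associated kinase gene Stk17b (0.71 ± 0.38 and -0.49 ± 0.83, adjusted p = 0.0082), whose call was lost without slides 7 and 8 or 15 and 16 and whose second probe was not called. Of 19 p53 target genes 2 were lower, among them the cell cycle inhibitor Cdkn1a (0.12 ± 0.32 and 1.83 ± 0.36), and 1 was higher, Trp53inp1 (0.09 ± 0.54 and -0.40 ± 0.48, adjusted p = 0.0145). The Trp53inp1 values of HDAC7-VP16 cells split by dye, at -0.77 to -0.01 on the 5 Cy5 arrays and 0.37 to 0.83 on the 5 Cy3 arrays. Its call was lost with no dye column, in either slide series alone, and without slides 7 and 8 or 15 and 16. Cholesterol genes had 4 lower of 18, such as Msmo1 (-0.02 ± 0.24 and 0.95 ± 0.29), and 1 higher, the efflux transporter gene Abcg1 (-0.55 ± 0.56 and -1.90 ± 0.30). Receptors of cytokines and chemokines had 3 higher and 4 lower of 32, with Cxcr3 the lowest (0.24 ± 0.39 and 2.41 ± 1.16). Quiescence genes had 5 higher and 2 lower of 25, adhesion genes 5 and 4 of 30, interferon and MHC class I genes 3 and 2 of 26, ribosome biogenesis genes 3 and 3 of 30, heat shock genes 2 and 2 of 17, glucocorticoid-response genes 2 and 2 of 17, and integrated stress response genes 0 and 2 of 28.

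**Figure D4:**
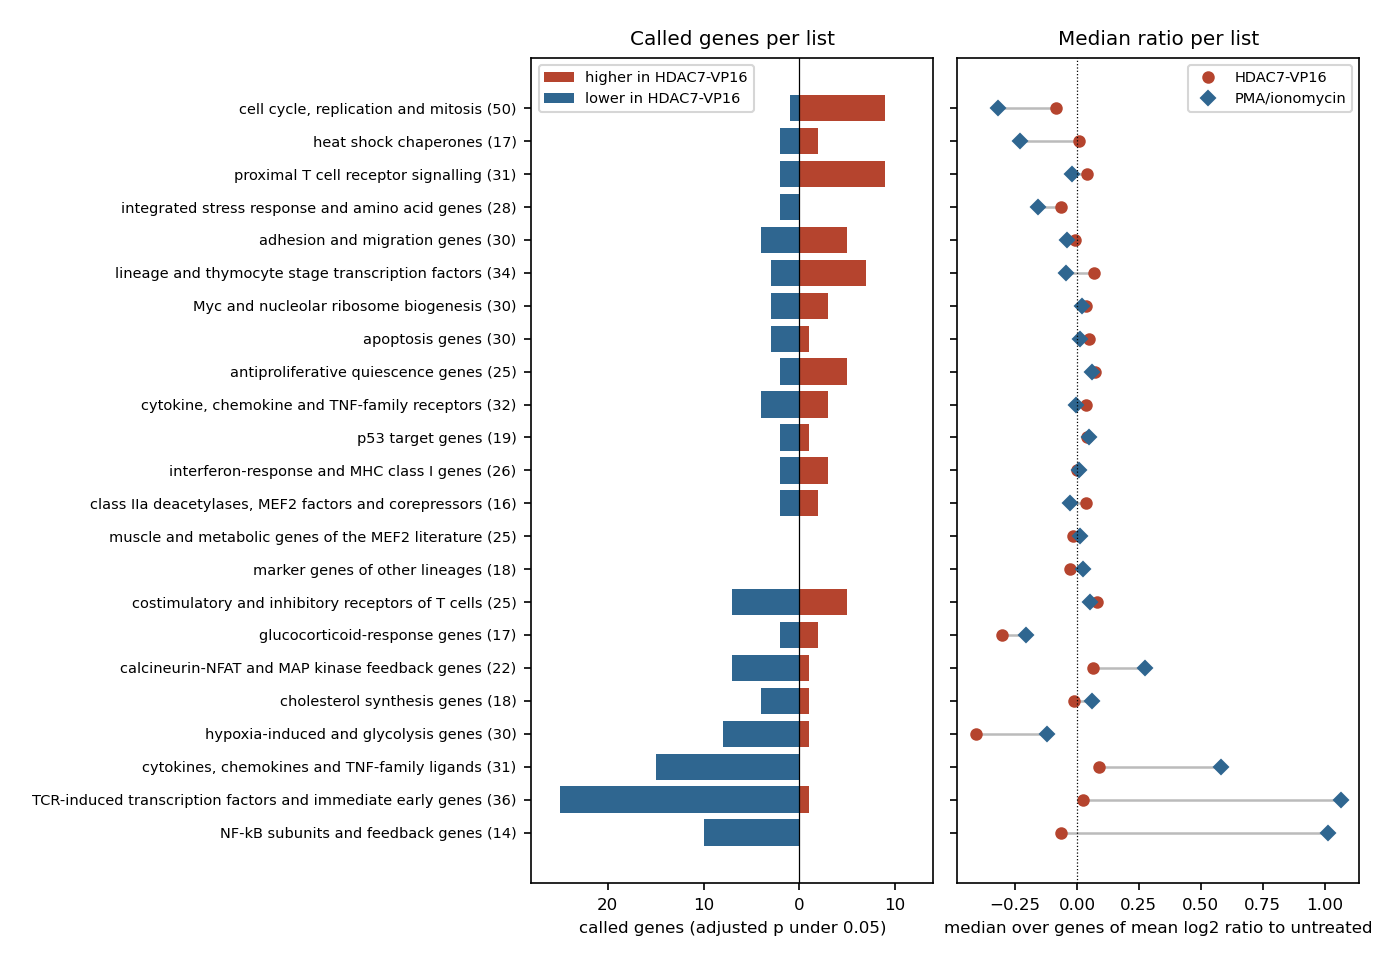
Left, number of genes per list called higher (red, to the right) or lower (blue, to the left) in HDAC7-VP16 cells than in PMA/ionomycin cells, with the number measured in brackets. Right, median over each list of the mean log2 ratio to untreated cells in HDAC7-VP16 cells (circles) and PMA/ionomycin cells (diamonds), which lie furthest apart for the immediate early list (0.03 and 1.07) and the NF-kB list (-0.06 and 1.01).

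Promoter windows of 250 bases before the first start listed by RefSeq (GRCm38.p6) were searched on both strands for the MEF2 consensus and for the motifs TGANTCA, the AP-1 site, and TGCGTCA, a close relative of the cyclic AMP response element. Of all 27025 windows 3.01% held the MEF2 consensus, 6.87% TGANTCA and 1.78% TGCGTCA. Among the 12 genes with the highest differences, 7 had a window and 2 of these held a MEF2 match, Cpa3 and Gpr65. Of the 12 with the lowest differences, 9 had a window, and of the 8 raised in both without a called difference 7 did. Both sets held 0 MEF2 matches. Among the other named genes, MEF2 matches lay in Hdac5, whose difference was not called, and in Tnfrsf4, Atf3 and Cdkn1b. These last genes were called lower in HDAC7-VP16 cells (differences -0.996, -0.693 and -0.39). MEF2 matches were thus found in named genes of either direction. A match is a description of letters only. Only these 250 bases were searched, so 0 matches leaves sites further upstream unexamined. Of the 3 windows below, Gpr65 is shown as a gene with opposite ratios in the groups, Hdac5 as a class IIa deacetylase gene above untreated cells with HDAC7-VP16, and Nr4a1 as the gene raised by both. Capitals mark the MEF2 match in Gpr65 (chr12:98268385-98268634, plus strand) at bases -174 to -165 and in Hdac5 (chr11:102230173-102230422, minus strand) at -20 to -11, and the 4 matches of TGCGTCA in Nr4a1 (chr15:101266596-101266845, plus strand), whose window held 0 MEF2 matches.
Gpr65: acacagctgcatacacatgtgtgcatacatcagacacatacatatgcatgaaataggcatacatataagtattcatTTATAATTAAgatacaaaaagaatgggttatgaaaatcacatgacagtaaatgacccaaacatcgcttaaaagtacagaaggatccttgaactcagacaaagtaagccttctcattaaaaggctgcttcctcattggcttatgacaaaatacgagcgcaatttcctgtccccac
Hdac5: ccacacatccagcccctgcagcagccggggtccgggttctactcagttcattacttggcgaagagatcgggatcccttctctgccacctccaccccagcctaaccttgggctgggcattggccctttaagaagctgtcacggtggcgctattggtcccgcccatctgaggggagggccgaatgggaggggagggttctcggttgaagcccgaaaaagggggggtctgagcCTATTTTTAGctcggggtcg
Nr4a1: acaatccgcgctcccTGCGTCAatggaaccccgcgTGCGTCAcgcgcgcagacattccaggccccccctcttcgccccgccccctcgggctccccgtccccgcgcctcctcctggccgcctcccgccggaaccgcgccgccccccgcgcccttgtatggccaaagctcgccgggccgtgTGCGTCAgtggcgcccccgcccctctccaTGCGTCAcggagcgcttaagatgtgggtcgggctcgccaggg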

How the data were processed

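Arrays hybridised in 2 colours were read from the series' value table. Per the labels' protocols, RNA was isolated with acid phenol, and aminoallyl cDNA received Cy3 or Cy5 dye. The values deposited by the authors are taken as log2 ratios of the transduced or treated cells over untreated cells. The sources used here state no log base, ratio direction, background correction or normalization. The direction is likely rather than stated, its basis being that Nr4a1, Egr1 and Il2 lay above 0 on stimulated arrays of either dye. Dyes come from the titles, since both dye fields say Cy3. Column medians lay between -0.016 and 0.017, so the arrays look centred already, and 0 values were missing. Spot intensities were not used here.

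Each array was centred on its median. limma 3.58.1 (lmFit and eBayes, statmod 1.5.0, R 4.3.3) fitted each probe over the 18 arrays with a dye column, with both groups set against each other and against untreated cells (a ratio of 0). Calls needed an adjusted p (Benjamini-Hochberg) under 0.05, and all adjusted p-values in the text are limma's over 16463 probes. The fit was also run on simulated data with independent noise and a common dye effect, without slide pairs or shared cultures. That run cannot show how such features affect the calls. Of the probes, 14551 had 1 gene symbol (13409 distinct), 6 several and 1906 none, by the platform annotation. Entrez IDs of 14272 probes were in the RefSeq table, and symbols were updated from it.

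Named genes are HDAC7, MEF2 and Nr4a1 genes, the 12 highest and 12 lowest called differences, the strongest genes raised in both, opposite or below in both, and up to 3 called genes per list and direction. List counts use the first probe of a gene that has more than 1. The members and the 23 gene lists were chosen with earlier results of these data known, and list counts are descriptions with no test. Neighbouring slide numbers with opposite dyes were taken as slide pairs; this pairing is inferred. Promoter matching used Python 3.11.15 with 102 of 129 named genes found in the RefSeq windows.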

Additional observations from a re-analysis of the deposited data

Results flagged for a closer look

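In 9 of 258 groups of arrays tested, that is 129 named genes in each of the HDAC7-VP16 and PMA/ionomycin groups, the lowest or highest array stood far from the others by Dixon's criterion. Chance alone marks about 1 group in 20. Among HDAC7-VP16 arrays, replicate 8 was high for Hdac9 (log2 ratio 1.44, next 0.13) and for Fli1 (1.74, next 0.51), replicate 1 was low for Il2 (-0.58, next -0.09) and high for Hes1 (1.71, next 0.78), replicate 5 was high for Srebf2 (0.37, next -0.06), and replicate 9 was low for Rbl2 (-0.27, next 0.11). Among PMA/ionomycin arrays, replicate 8 was high for Sox13 (-1.65, next -2.14), replicate 4 was low for Mmd (0.96, next 1.29) and replicate 7 was high for Gadd45g (2.33, next 1.71). Replicate 1 is the array whose source name gives the empty virus. The called differences of Hes1, Il2, Srebf2, Rbl2, Sox13 and Gadd45g held when any single array was left out, and Fli1 lost its call without PMA/ionomycin replicate 6 (0.89, adjusted p = 0.0647) or 8 (0.80, adjusted p = 0.0579).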

How the results depend on the processing

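With all 18 arrays 1452 probes were called for HDAC7-VP16 minus PMA/ionomycin, 285 of them at least 2-fold, with 463 called for HDAC7-VP16 and 2937 for PMA/ionomycin against untreated cells; these 4 counts are given in that order below. Leaving out single arrays gave 1102 to 1562, 234 to 337, 327 to 518 and 2096 to 3074. Slide series 14 alone gave 99, 66, 11 and 1102, and slide series 15 alone 564 and 245 for the difference, 384 and 1017 against untreated cells. Averaging slide pairs gave 22, 22, 0 and 382, with 2035, 1510 and 2873 probes at an unadjusted p under 0.05 for the difference, HDAC7-VP16 and PMA/ionomycin; it has 5 values in place of 18. Without slides 13 and 14 the difference had 2886 calls (1715 higher and 1171 lower) and 903 at least 2-fold (578 higher and 325 lower). Without slides 15 and 16 it had 681 and 177, with 883 for PMA/ionomycin. Without slides 7 and 8 it had 816, with 83 for HDAC7-VP16, and without slides 9 and 10 HDAC7-VP16 had 270. A test against a log2 difference of 0.5 (treat) called 152. With no dye column the difference had 996 calls and with the slide pair as a random block 1128. Among 113 called named genes 0 changed direction under any setting; 89 kept their call when any single array was left out, 97 with the random block, 91 without a dye column and 11 with slide pairs averaged. The difference between slide series had 0 calls in limma (506 at an unadjusted p under 0.05). A dye column for each group (1559 calls) and leaving out HDAC7-VP16 replicates 9 and 10 (1385 calls, 104 of 113 genes kept) were chosen after seeing the data. No paired analysis was possible because the HDAC7-VP16 and PMA/ionomycin arrays share no slide number and their replicate numbers were given in accession order. Spot intensities were not used, so a low signal could not be told from a small ratio.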
